A study of Onthophagus taurus with 60 samples.

Results

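The comparison described here set the thoracic horn of male Onthophagus taurus prepupae against the wing of the mesothorax, 18 of the 60 columns of an RNA-sequencing table. The horn gave 6 columns, 1 for each of 6 animals. The T2 wing gave 12 columns, a left and a right one for each animal, and the columns of an animal were added, so that 6 horn libraries stood against 6 wing libraries. The members were chosen by their sample labels alone. All libraries were made from polyA RNA of dissected epithelium at the prepupal stage, the end of larval life, and the labels name no treatment, strain or genotype that differs between them. Both tissues came from males, and the labels say nothing of horned and hornless male forms. The other tissues used below were the carinated margin, the anterior margin, the posterior margin and the dorsal centre of the prothorax, here called dorsal prothorax, with 6 animals each. The support structures, paired outgrowths of the abdominal body wall, and the dorsal head entered no test. They were used for levels and for shares counted from levels.

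Onthophagus taurus is a dung beetle. Its prothorax bears no wings, and its thoracic horn is an unjointed outgrowth of the dorsal prothoracic epidermis. At the prepupal stage the epidermis has parted from the larval cuticle, grows under it and secretes the cuticle of the pupa. In this species the thoracic horn stands out in the pupa and is removed before the adult emerges. Wings of beetles grow from paired dorsal epidermal fields of the second and the third thoracic segment, and several parts of the wingless prothorax have been proposed to be serial homologs of wings. The series title names that question.

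Counts per library averaged 15.48 ± 1.29 M in the horn and 33.49 ± 2.29 M in the wing, M standing for mega-counts (SD, n = 6 each). The most abundant transcript took 7.06% to 8.28% of the counts of a horn library and 9.33% to 11.1% of a wing library, and the 10 most abundant took 38.2% to 41.4% in the horn and 40.9% to 42.6% in the wing. The 100 most abundant transcripts of a library took a larger share in the horn, 79.0% to 81.9% against 69.7% to 72.3% in the wing. A count was found for 13316 to 13796 transcripts in a horn library and 16093 to 16797 in a wing library. These numbers rise with depth, and the libraries were not brought to equal depth. After TMM scaling the effective depth averaged 10.9 M in the horn and 47.5 M in the wing. Levels are given as TMM-scaled counts per mega-count (CPM). They are not corrected for transcript length, which the files do not give, so levels of different transcripts are not ranked by molecules. None of the marker symbols listed for wing, muscle, neuron, haemocyte, fat body and trachea matched the gene table, so the tissue labels could not be checked by markers. In whole tissue, fewer cells of a type and less RNA per cell cannot be told apart.

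Of 12122 transcripts tested, 5340 (44.1%) differed between horn and wing at an adjusted p under 0.05 in edgeR's quasi-likelihood test with the animal as a block. In the horn 2390 (19.7%) were higher and 2950 (24.3%) were lower. A change of at least 2-fold was met by 1393 of the higher (11.5% of those tested) and 1626 of the lower (13.4%). The median log2 fold change over all tested transcripts was -0.21, with a median standard error of 0.24. Among the higher calls 2176 were higher in 6 of 6 animals, and among the lower calls 2758 were lower in 6 of 6, where 19.4% and 28.0% of all tested transcripts lay above or below in 6 of 6. The balance between directions depended on the scaling and on the filter. With no filter 1969 were higher and 3161 lower, of 20508 transcripts tested. With RLE size factors 2658 were higher and 2552 lower. With total counts and no scaling factor the median moved by -1.01, 789 were higher and 7587 lower, and 558 transcripts took the opposite call.

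**Figure D1:**
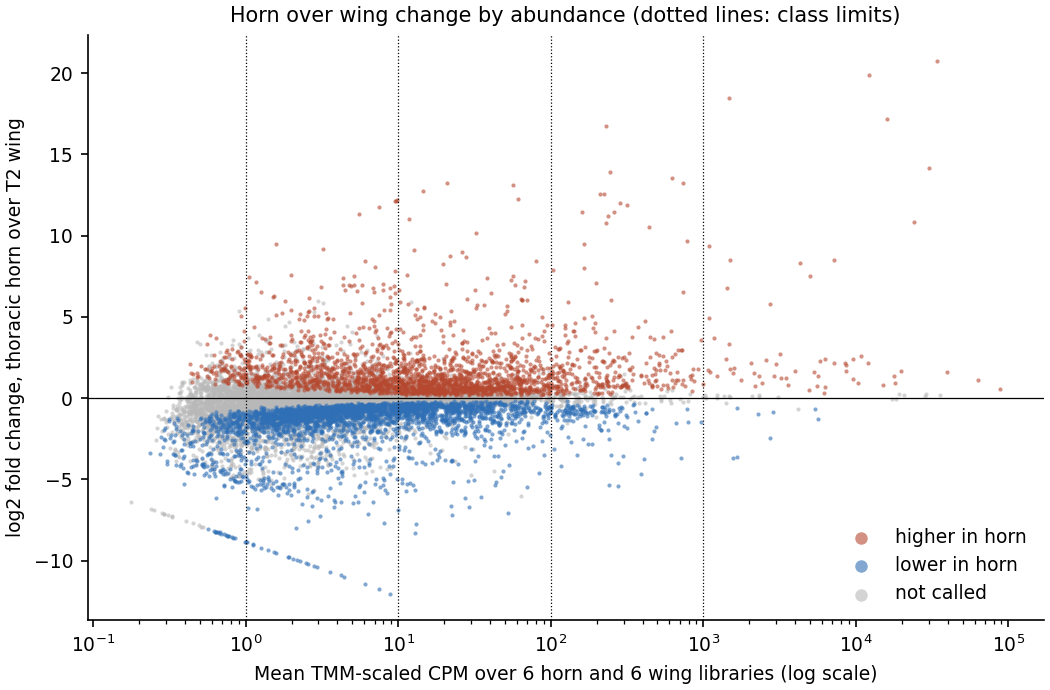
Log2 fold change of horn over wing for 12122 transcripts against their mean CPM over the 12 libraries (log axis), with calls at an adjusted p under 0.05 in colour and dotted lines at the class limits of 1, 10, 100 and 1000 CPM. Higher calls take up more of the cloud towards the right, and the slanted line of blue points at the lower left is made of transcripts with 0 counts in the horn, whose fitted values depend on the prior count.

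Abundance and direction went together. Transcripts were put in 5 classes by their mean CPM over the 12 libraries. Under 1 CPM 94 of 1657 transcripts (5.67%) were higher in the horn and 316 (19.1%) lower. From 1 to 10 CPM the counts were 828 higher (12.8%) and 1633 lower (25.2%) of 6476. The 2 lowest classes thus held fewer higher calls than lower ones. Between 10 and 100 CPM 1127 of 3369 (33.5%) were higher and 851 (25.3%) lower. With no filter the balance in this class turned, with 851 higher and 979 lower. Between 100 and 1000 CPM 280 of 531 (52.7%) were higher and 142 (26.7%) lower. At 1000 CPM and over 61 of 89 (68.5%) were higher and 8 (8.99%) lower. The share of higher calls was thus larger in each class than in the one below it. The median log2 fold change of the classes ran, from low to high, -0.81, -0.36, 0.08, 0.53 and 1.36, against -0.21 for all tested transcripts. The median standard error was 0.69 in the lowest class, 0.27 in the next and 0.13 to 0.14 in the upper 3, so that a call needed a larger difference at low counts.

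The classes were drawn from the same libraries that were compared. Drawn instead from the 24 libraries of the other 4 prothoracic tissues, they gave higher calls of 13.95%, 12.3%, 29.7%, 43.6% and 58.4%, and lower calls of 15.5%, 24.5%, 26.0%, 31.9% and 15.6%. With that choice the share of higher calls increased from the second class upward, and the median log2 fold change increased in every step, from -0.51 to 0.75. With total counts the class medians ran from -1.81 to 0.35, and with RLE size factors from -0.72 to 1.45. The classes were kept, and a change of scaling moves all log2 fold changes by nearly the same amount. The order of the medians was thus nearly fixed in advance, and these 2 refits are no further check of it. Against wing columns 1 to 6 alone, which lessens the gap in depth, the medians ran from -0.78 to 1.31, and against columns 7 to 12 alone from -0.85 to 1.41. Calls in the class under 1 CPM were the least stable: refits without any 1 animal made 173 to 205 lower calls in place of 316, and the refit without animal 4 made 60 higher calls in place of 94.

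**Figure D2:**
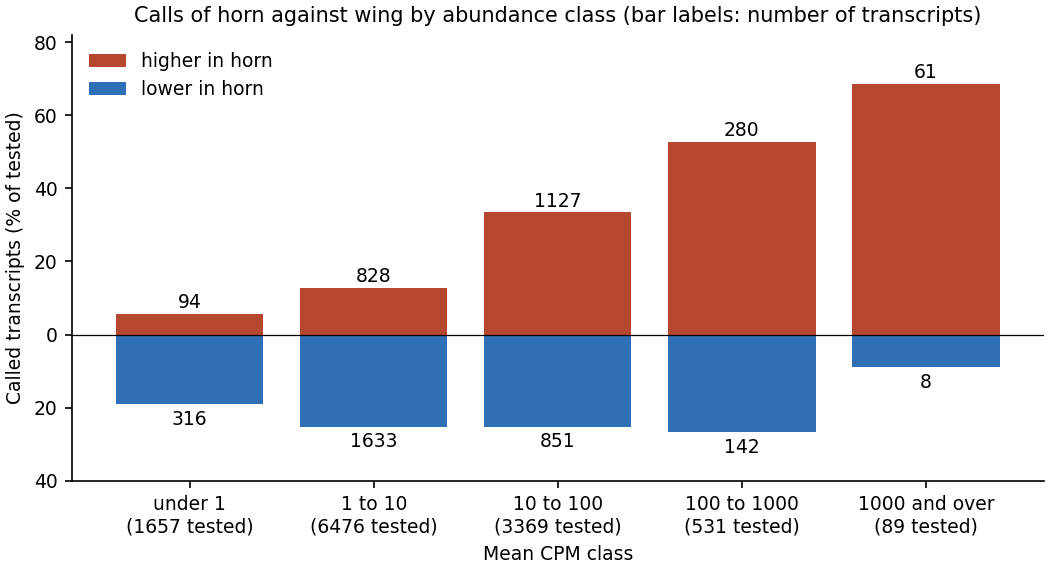
Share of tested transcripts called higher in the horn (upward bars) and lower in the horn (downward bars) in each class of mean CPM, with the number of transcripts on each bar. Higher calls make up 5.67% of the lowest class and 68.5% of the highest, while lower calls stay between 19.1% and 26.7% in the 4 classes under 1000 CPM and are 8.99% above it.

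The class of 1000 CPM and over held most of the RNA counted. Its 89 transcripts took 76.8% to 80.4% of the counts of a horn library, against 66.5% to 69.4% of a wing library. The 61 called higher took 60.5% to 65.7% in the horn and 35.4% to 38.95% in the wing. Among them were 15 transcripts at least 10-fold higher in the horn, which took 17.8% to 22.0% of all counts in a horn library and 0.0619% to 0.117% in a wing library. A sizeable part of a horn library by counts thus came from transcripts that together took little of a wing library. Their mean levels in the wing ran from 0.00357 to 201 CPM, so not all of them were close to absent there. The 20 transcripts of this class that were not called had log2 fold changes between -0.66 and 0.26.

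Of these 15 the highest CPM in the horn was that of XM_023053048.1 of LOC111420100. Its lowest, median and highest levels were 58010, 67410 and 80950 CPM in the horn, against 0, 0.0296 and 0.0832 CPM in the wing. The groups did not overlap, 3 of the 6 wing libraries held no count of it, and the log2 fold change was 20.73 ± 0.63 (SE; edgeR adjusted p = 9.57e-06). LOC111418544 (XM_023051091.1) lay at 19370, 24200 and 28690 CPM in the horn, against 0, 0.00987 and 0.101 CPM in the wing, a log2 fold change of 19.89 ± 0.54 (adjusted p = 8.6e-06, edgeR). Its wing counts numbered 6 in all, so the size of the fold rests on few reads; without animal 5 it was 20.88. The files pair neither gene with a function.

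In the other direction the class held 2 transcripts at least 10-fold lower in the horn. LOC111418884 (XM_023051587.1) ranged over 129, 229 and 310 CPM in the horn and 1147, 2698 and 4698 CPM in the wing. LOC111419805 (XM_023052674.1) ranged over 140, 213 and 441 CPM in the horn and 2250, 2769 and 4191 CPM in the wing. Every horn library lay below every wing library for both, with log2 fold changes of -3.70 ± 0.18 (SE; adjusted p = 2.59e-05, edgeR) and -3.63 ± 0.17 (adjusted p = 2.49e-05, edgeR). Summed over all its transcripts, of which 3 were tested, LOC111419805 changed by -3.48 ± 0.16.

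The highest mean CPM in both tissues belonged to the same pair of transcripts, while the third in the horn was LOC111420100. XM_023050859.1, matched to no gene, had the highest CPM in both, at 88460, 107500 and 123000 CPM in the horn and 63260, 70080 and 83010 CPM in the wing, a log2 fold change of 0.59 ± 0.10 (adjusted p = 0.00418, edgeR). LOC111418334 (XM_023050848.1) followed it in both with 81570, 84590 and 97670 CPM in the horn and 34400, 39720 and 45310 CPM in the wing, and a log2 fold change of 1.15 ± 0.12 (adjusted p = 0.000427, edgeR). Both differed without overlap of the groups. XM_023065439.1, the third in the wing, had 30990, 36460 and 46380 CPM in the horn and 27530, 32160 and 39830 CPM in the wing, with overlapping groups and a log2 fold change of 0.19 ± 0.14 that missed the threshold (adjusted p = 0.297, edgeR). With total counts the sign of XM_023050859.1 and XM_023065439.1 turned, and LOC111418334 was no longer called.

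Between 100 and 1000 CPM the largest increases ran from an abundant transcript in the horn to traces in the wing. LOC111426960 (XM_023061883.1) had 220.4, 456 and 730.5 CPM in the horn and 0 counts in all 6 wing libraries, at least 44173-fold higher in the horn against a floor of 3 counts over the wing group. Its gene had a second tested transcript. Summed over all transcripts of the gene the log2 fold change was 6.67 ± 0.30, so the gene as a whole was present in the wing. XM_023047519.1, matched to no gene, had 57.3, 411 and 1025 CPM in the horn and 0, 0.0212 and 0.0505 CPM in the wing, a log2 fold change of 13.91 ± 0.41 (adjusted p = 9.57e-06, edgeR). On the lower side LOC111415391 (XM_023047071.1) had 4.50, 15.1 and 19.9 CPM in the horn and 458, 514 and 726 CPM in the wing, a log2 fold change of -5.42 ± 0.34 (adjusted p = 6.98e-05, edgeR). The non-coding XR_002706382.1, with 6.19, 14.5 and 16.8 CPM in the horn and 398, 474 and 548 CPM in the wing, changed by -5.34 ± 0.28 (adjusted p = 3.46e-05, edgeR). None of these 4 had overlapping groups.

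In the class of 10 to 100 CPM XM_023051862.1, matched to no gene, was among the largest increases. It had 29.0, 43.2 and 51.0 CPM in the horn and 0 counts in the wing, at least 3995-fold higher in the horn. The non-coding XR_002708027.1 had 41.0, 57.3 and 317.9 CPM in the horn and 2 counts in the whole wing group, a ratio of 16130 with a 95% counting interval of 4462 to 133200. Its fitted log2 fold change was 13.11 ± 0.45, 12.46 without animal 5 and 13.70 without animal 3. On the lower side LOC111426932 (XM_023061829.1) was without a count in 5 of 6 horn libraries and reached 0.563 CPM in the other, against 10.1, 29.7 and 35.9 CPM in the wing. Its log2 fold change was -8.29 ± 0.76 (adjusted p = 0.000282, edgeR) and -12.46 without animal 6, whose horn library held all of its horn counts. The gene, summed over all its transcripts, of which 2 were tested, changed by -4.86 ± 0.22. LOC111414353 (XM_023045671.1) had 0, 0 and 0.454 CPM in the horn and 17.99, 22.7 and 42.2 CPM in the wing, a log2 fold change of -7.74 ± 0.77 (adjusted p = 0.000404, edgeR) and -8.86 without animal 5.

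From 1 to 10 CPM the 2 leading transcripts on each side had no count in the tissue where they were low. XM_023045326.1, matched to no gene, had 12.5, 18.7 and 29.4 CPM in the horn, at least 1864-fold higher than in the wing, and LOC111426045 (XM_023060389.1) had 11.5, 18.9 and 25.9 CPM in the horn, at least 1851-fold higher. LOC111425442 (XM_023059453.1) was at 0 in all horn libraries and at 12.2, 17.5 and 23.8 CPM in the wing, at least 391-fold lower in the horn. LOC111425424 (XM_023059423.1), also at 0 in the horn, had 10.9, 13.3 and 23.0 CPM in the wing and was at least 320-fold lower in the horn. The bounds are smaller on the lower side because 3 counts over the group are worth 0.046 CPM in the horn and 0.0105 CPM in the wing. Summed over all their transcripts, LOC111425442 and LOC111425424 changed by -7.43 ± 0.29 and -6.31 ± 0.34.

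Under 1 CPM values rested on few reads. XM_023057271.1 had 126 counts in the horn and 11 in the wing, with levels of 0.7504, 1.80 and 3.31 CPM in the horn and 0, 0.0301 and 0.101 CPM in the wing. XM_023053613.1 had 118 counts in the horn and 17 in the wing, with 0.726, 1.90 and 3.10 CPM in the horn and 0, 0.058 and 0.126 CPM in the wing. Their log2 fold changes were 5.54 ± 0.83 and 5.09 ± 0.81 (adjusted p = 0.00224 and 0.0029, edgeR), and neither pair of groups overlapped. XM_023048293.1 had no count in the horn and 0.8998, 1.79 and 2.09 CPM in the wing, at least 37-fold lower in the horn. Over all classes 9 tested transcripts had 0 counts in the wing, and 9 of these were called higher. In the horn 55 tested transcripts had 0 counts, and 41 of these were called lower. Such transcripts passed the filter through the other tissue alone, and the horn had the lower effective depth.

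**Figure D3:**
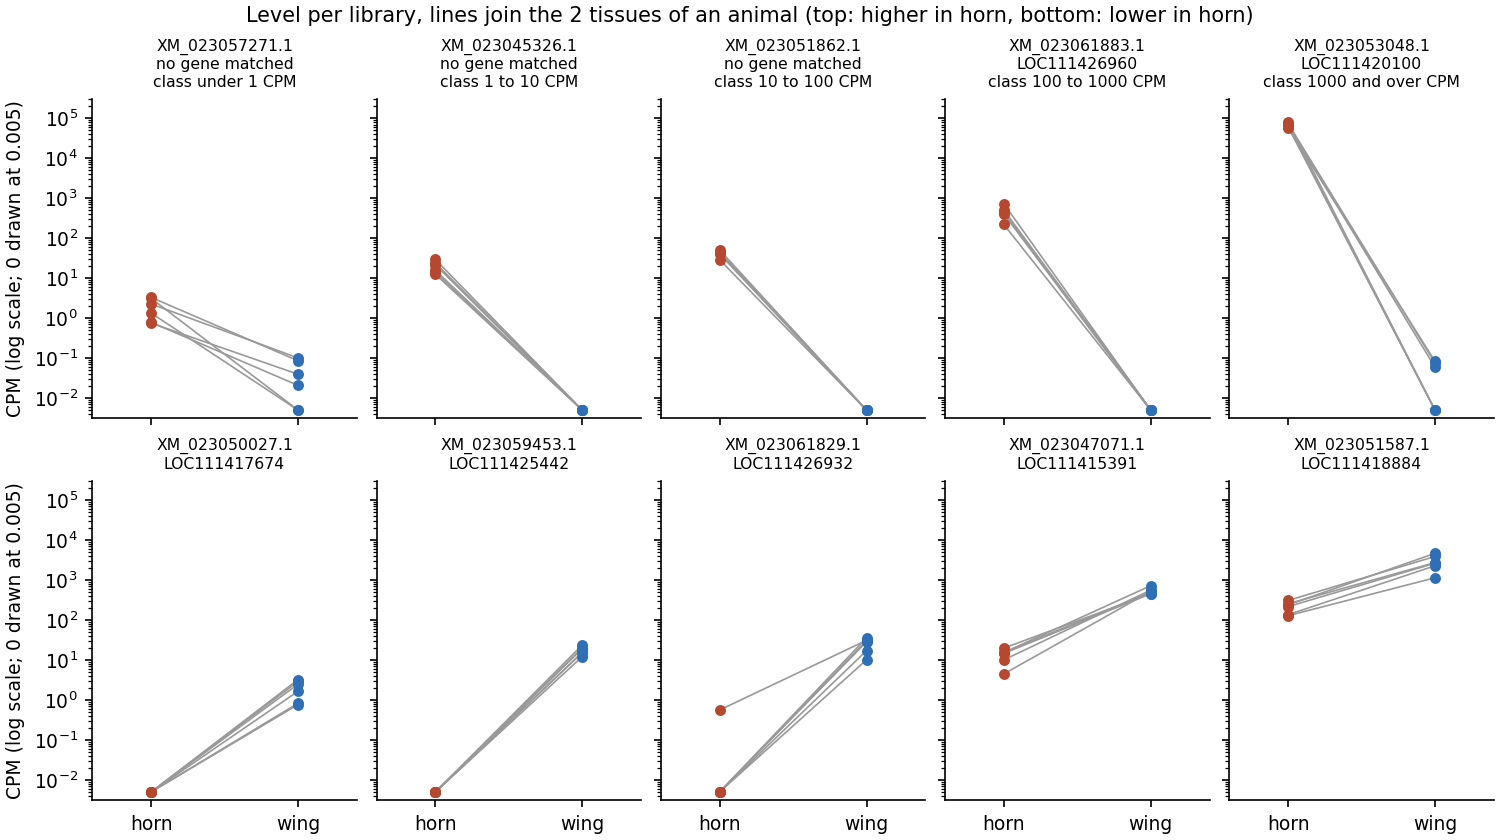
CPM per library (log axis, 0 drawn at 0.005) of the transcript with the largest fitted increase (top row) and the largest decrease (bottom row) in each abundance class, horn on the left and wing on the right of each panel, lines joining the tissues of an animal. The transcripts were picked among those called and of the same direction in 6 of 6 animals, so the common direction of the lines follows from that choice. In all 10 panels the horn and wing points do not overlap.

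Whether a horn to wing difference was also seen elsewhere in the prothorax was read from a single fit of 36 libraries, 6 from each of horn, carinated margin, anterior margin, posterior margin, dorsal prothorax and wing. These contrasts share the wing libraries, or the horn libraries, so the counts are a description. Of the transcripts called higher in the horn 2383 could be tested there. Against the wing, and in the same direction, the carinated margin was also called in 783 of them (32.9%, where 9.61% of all 14400 transcripts were called higher), the anterior margin in 917 (38.5%, against 11.9%), the posterior margin in 924 (38.8%, against 12.3%) and the dorsal prothorax in 1139 (47.8%, against 16.7%). Of the 2949 called lower in the horn, the carinated margin was also called lower in 676 (22.9%, against 7.26%), the anterior margin in 932 (31.6%, against 11.9%), the posterior margin in 1097 (37.2%, against 13.5%) and the dorsal prothorax in 1537 (52.1%, against 19.9%). The dorsal prothorax thus accompanied the horn most often and the carinated margin least often in both directions, in the same order as the tissues' own call rates. The median log2 fold change of the 2383 was 1.17 in the horn and 0.29 to 0.40 in the other tissues, each against the wing, and that of the 2949 was -1.09 in the horn and -0.22 to -0.45 in the others.

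Differences were then sorted by how many of the other 4 prothoracic tissues showed them. All 4 did so for 458 of the higher transcripts (19.2%), termed shared by the prothorax, and 1 to 3 did so for 1036 (43.4%). For 613 (25.6%) none of the 4 was called against the wing in that direction while the horn was called against each of the 4, and these are termed the horn's own. Over all 14400 transcripts the horn was called above the carinated, anterior and posterior margins and the dorsal prothorax in 16%, 17.4%, 17.0% and 17.2%, and below them in 26.4%, 24.8%, 24.6% and 24.3%. How often such calls fell together over all transcripts is not given here. The shares of each kind are thus a description without a joint background. The remaining 276 met neither rule. Among the lower transcripts 483 (16.4%) were shared, 1313 (44.5%) were seen in some, 865 (29.3%) were the horn's own and 288 met neither rule. Shared did not mean equal. In 133 of the 458 shared higher transcripts (29.0%) the horn was also called above each of the other 4 tissues, and in 164 (35.8%) above none. In 194 of the 483 shared lower ones (40.2%) the horn was called below each of the 4, and in 141 (29.2%) below none. Without the animal as a block, 235 higher and 201 lower transcripts were shared.

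By abundance, the horn's own made up 13.8% of the higher calls under 1 CPM, 23.2% from 1 to 10, 29.9% from 10 to 100, 19.3% from 100 to 1000 and 27.9% at 1000 CPM and over. Shares of the shared kind among the higher calls lay between 16.4% and 21.1% in all 5 classes. Among the lower calls the shared kind made up 3.16% under 1 CPM, 11.4% from 1 to 10 and 30.4% from 10 to 100. It made up 18.3% from 100 to 1000, and 2 of the 8 lower calls (25%) at 1000 CPM and over. The range was wider than on the higher side. At 1000 CPM and over, 10 of the 61 higher transcripts were shared, 34 were seen in some and 17 were the horn's own. A shared call could go with a large margin of the horn over its neighbours. LOC111420100, shared by this sorting, had a median of 84100 CPM in the horn, 2.09 to 13.2 CPM in the other 4 prothoracic tissues and 0.0369 CPM in the wing (scaled over all 48 libraries), and the horn exceeded each of the 4 by 12.73 to 15.57 on the log2 scale. LOC111418544, also shared, had 30220 CPM in the horn, 0.43 to 2.33 CPM in the other 4 and 0.0123 CPM in the wing, with margins of the horn of 13.22 to 14.96.

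**Figure D4:**
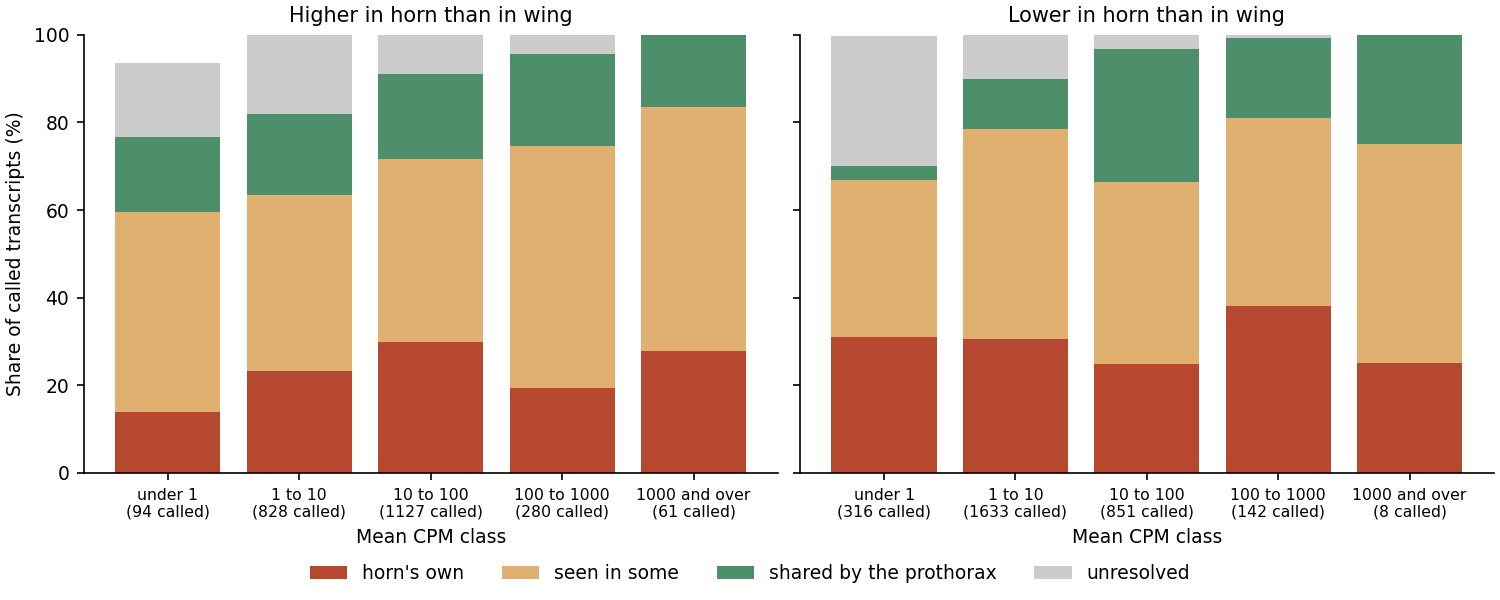
Share of the transcripts called higher (left) and lower (right) in the horn than in the wing that were the horn's own, seen in 1 to 3 of the other prothoracic tissues, shared by all 4, or unresolved, in each class of mean CPM. Shared transcripts stay between 16.4% and 21.1% of higher calls, and range from 3.16% to 30.4% of lower calls. Bars fall short of 100% where transcripts were not tested in the 36 libraries.

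Levels from here to the account of transcripts of single genes were scaled over all 48 libraries of the series and so differ somewhat from those above. The shared transcripts with the largest differences in all 5 prothoracic tissues included several that were present across the prothorax and at 0 in the wing. XM_023051862.1 had medians of 52.7 CPM in the horn, 55.9 in the carinated margin, 54.5 in the anterior margin, 38.5 in the posterior margin and 75.7 in the dorsal prothorax, with 0 counts in the wing. It also had 0 counts in the support structures, so of these 7 tissues it was counted in the 5 of the prothorax. The dorsal head, which is not one of the 7, held 315 counts of it, with a median of 0.374 CPM. The horn did not differ from the carinated, anterior or posterior margin beyond the threshold (edgeR adjusted p = 0.576, 0.218 and 0.0613), and it was lower than the dorsal prothorax by 0.46 ± 0.16 on the log2 scale (adjusted p = 0.0269, edgeR).

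Both named transcripts of LOC111419103 had the same pattern of presence. XM_023051863.1 had medians of 22.0 CPM in the horn and 18.5 to 42.4 in the other 4 prothoracic tissues, and XM_023051860.1 had 11.5 CPM in the horn and 9.11 to 21.6 in the others. Neither had a count in the support structures or in the wing, while the dorsal head held 85 and 82 counts of them. Horn against wing, they were at least 1794-fold and 1049-fold higher. LOC111427029 (XM_023061976.1) had medians of 35.98 CPM in the horn, 15.3 to 31.1 in the other prothoracic tissues and 69.9 in the support structures, with 0 counts in the wing. In its case the wing was the single one of these 7 tissues without a count. Summed over all its transcripts, of which 3 were tested, the gene's log2 fold change of horn over wing was 7.86 ± 0.09. Other transcripts of it were thus counted in the wing.

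On the lower side the 4 shared transcripts with the largest margins were counted mostly in the wing. LOC111420652 (XM_023053690.1) had medians of 0.396 CPM in the horn, 0.0614 to 0.752 in the other 4 prothoracic tissues, 0 in the support structures and 44.3 in the wing, and its log2 fold change in the horn was -6.62 ± 0.62 (adjusted p = 0.000323, edgeR), or -7.29 without animal 5. XM_023053673.1, matched to no gene, had 2 counts in the horn, both in animal 4, and 1509 in the wing; the wing over horn ratio was 173 with a 95% counting interval of 47.8 to 1428. XM_023054290.1, also without a gene, had 3 counts in the horn, all in animal 6, and 1780 in the wing, a wing over horn ratio of 136 with an interval of 46.4 to 659.6. A second transcript of LOC111425442, XM_023059455.1, had 0 counts in the horn, the anterior margin and the dorsal prothorax, and a median of 9.79 CPM in the wing. It was at least 155-fold lower in the horn than in the wing.

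The horn's own transcripts with the largest margins were abundant in the horn and low in the 4 neighbouring prothoracic tissues and the wing alike. LOC111418555 (XM_023051100.1) had 38630, 61950 and 78410 CPM in the horn, medians of 102 in the carinated margin, 23.1 in the anterior margin, 1.67 in the posterior margin and 9.99 in the dorsal prothorax, and 9.68, 31.9 and 105.5 CPM in the wing. Every horn library lay above every library of those 5 tissues. The log2 fold change against the wing was 10.85 ± 0.48 (adjusted p = 2e-05, edgeR), and against the other prothoracic tissues it ran from 9.27 ± 0.86 over the carinated margin to 14.03 ± 1.02 over the posterior margin.

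LOC111427358 (XM_023062469.1) had 1899, 3761 and 5607 CPM in the horn, medians of 6.48 to 10.9 in the other prothoracic tissues, and 7.11, 10.1 and 11.99 CPM in the wing. The other 5 tissues lay close together, and the horn exceeded the wing by 8.48 ± 0.25 and the other prothoracic tissues by 8.32 to 9.10 on the log2 scale (edgeR adjusted p = 9.57e-06 against the wing). XM_023053118.1, matched to no gene, had 298, 466 and 821 CPM in the horn, no count in the posterior margin and dorsal prothorax, 33 and 9 counts in the carinated and anterior margin, and 18 counts in the wing; horn over wing was 12.56 ± 0.33. LOC111428269 (XM_023063721.1) had 59.7, 115 and 299 CPM in the horn, 8126 counts in all, against 2 to 8 counts in each other prothoracic tissue and 6 in the wing; horn over wing was 12.26 ± 0.43.

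On the lower side the 4 of the horn's own with the largest margins were at 0 in the horn and were counted in the wing and in the other prothoracic tissues. XM_023048989.1, matched to no gene, had 0 counts in the horn, medians of 24.9 CPM in the carinated margin, 19.1 in the anterior margin, 35.4 in the posterior margin, 9.53 in the dorsal prothorax and 4.49 in the wing. It was at least 132-fold lower in the horn than in the wing, and the carinated, anterior and posterior margins were called above the wing (adjusted p = 0.00667, 0.0138 and 0.000663, edgeR). LOC111421032 (XM_023054142.1) was likewise at 0 in the horn, with medians of 12.3 to 29.2 CPM in the other prothoracic tissues and 6.51 in the wing, at least 126-fold lower in the horn than in the wing. XM_023051370.1 and LOC111417674 (XM_023050027.1) had 0 counts in the horn and medians of 6.27 and 2.58 CPM in the wing, at least 114-fold and 44-fold lower in the horn. In the other tissues single libraries of these 2 were also at 0. LOC111417674 had 2 tested transcripts, and summed over all its transcripts it was lower in the horn by a log2 fold change of -1.56 ± 0.21.

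**Figure D5:**
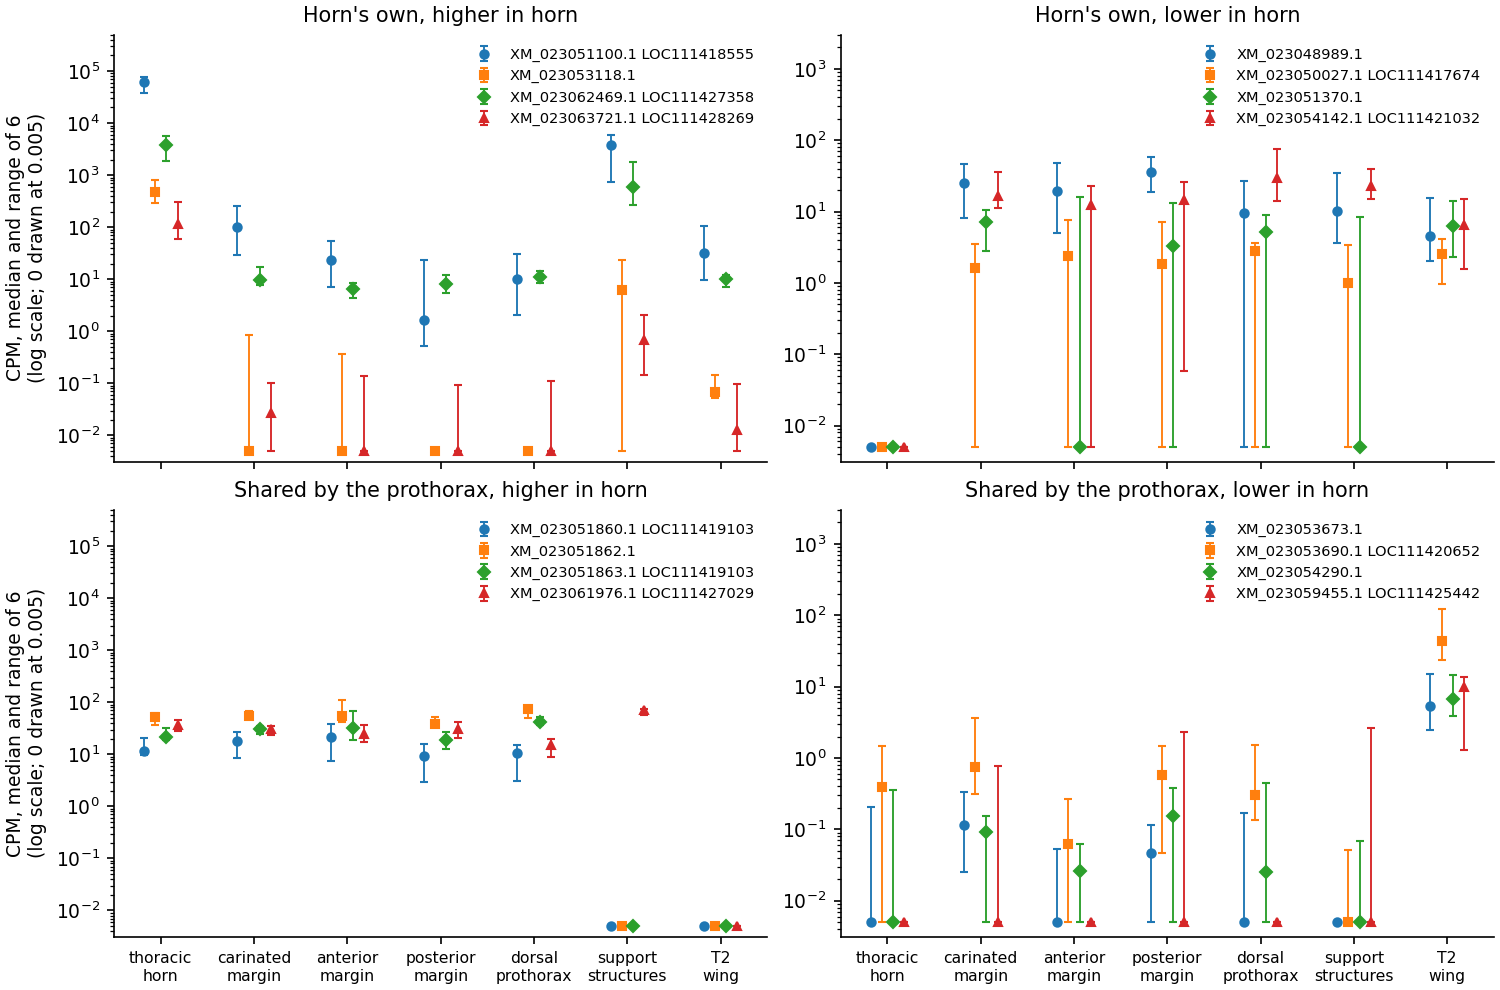
Median CPM (points) and range of 6 libraries (bars) on a log axis, 0 drawn at 0.005, of the named transcripts that were the horn's own (top) or shared by the prothorax (bottom), higher (left) or lower (right) in the horn, in thoracic horn, carinated margin, anterior margin, posterior margin, dorsal prothorax, support structures and T2 wing. The 4 higher transcripts of the horn's own that are drawn have their second highest median in the support structures, and 3 of the 4 shared higher transcripts drawn are at 0 in both the support structures and the wing.

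Support structures of the abdomen took no part in the sorting. The 4 higher transcripts just described had their next highest median there. LOC111418555 had 744, 3859 and 5993 CPM in the support structures, LOC111427358 had 267.5, 595.5 and 1786 CPM, XM_023053118.1 had 0, 6.15 and 23.4 CPM and LOC111428269 had 0.142, 0.6896 and 2.05 CPM. These levels lay below those of the horn in every library. XM_023050859.1 and IT, 2 other named transcripts sorted as the horn's own, had no such pattern: their medians in the support structures were 72830 and 2.54 CPM, below 87130 and 3.52 CPM in the wing. XR_002708060.1 and XM_023049042.1 of S1, also sorted so, did have it. Their medians in the support structures were 4.14 and 25.3 CPM, the next highest after the horn. Of all 613 higher transcripts of the horn's own, 380 (62.0%) had a mean in the support structures above the wing and above each of the other 4 prothoracic tissues, and 24.7% of all 14400 transcripts did so. Of the 865 lower ones, 597 (69.0%) had a mean below all of these, and 30.8% of all transcripts did so. The sorting required the wing and the other 4 tissues to lie away from the horn on 1 side, which by itself raises these shares, so they are given as a description.

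Some genes with large differences stood next to each other in the gene order of the RefSeq table. Of 6788 tested genes that could be placed, 340 (5.01%) were called and at least 4-fold higher in the horn on counts summed per gene, where 25.4% of genes were called higher at any fold and 28.7% lower, and 86 of these (25.3%) had such a gene as their nearest tested neighbour on either side, against 9.66% of all placed genes. At least 4-fold lower were 265 genes (3.90%), and 43 of them (16.2%) had such a neighbour, against 7.56% of all. The fold of 4 was chosen after the data were seen. There were 5 runs of 3 or more tested genes on the higher side and 3 on the lower side.

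A pair of these runs held genes with log2 fold changes above 10 throughout. The first was LOC111418591, LOC111418568, LOC111418555 and LOC111418544. LOC111418568 had 189450 counts in the horn and 1 in the wing. Medians of the 4 genes in the horn were 555, 2601, 61950 and 30220 CPM, in the support structures 7.83, 30.4, 3859 and 1057 CPM, and in the wing 0.128, 0, 31.9 and 0.0123 CPM. The second was LOC111428267, LOC111428268 and LOC111428269, with medians of 667, 612 and 115 CPM in the horn, 56.2, 26.2 and 0.6896 CPM in the support structures and 0.214, 0.209 and 0.0129 CPM in the wing. The order of horn, then support structures, then wing was thus the same in all 7 genes. In the carinated, anterior and posterior margins and the dorsal prothorax the medians of the second run lay between 0 and 2.89 CPM. Near-identical neighbouring genes can exchange reads in expected counts, so the split of counts within a run is less certain than its sum.

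Transcripts of 1 gene seldom moved in opposite directions. Of 1325 genes with several tested transcripts, 47 (3.55%) had at least 1 transcript called higher and 1 called lower in the horn, and 27 with at least 2-fold on both sides. Summed per gene 26 of the 47 were higher, 7 were lower and 14 were not called. LOC111426154 had 428, 486 and 661 CPM of XM_023060533.1 in the horn against 113, 139.9 and 189 CPM in the wing, and 96.4, 141 and 164 CPM of XM_023060532.1 in the horn against 128, 275 and 312 CPM in the wing. The log2 fold changes were 1.82 ± 0.08 (adjusted p = 2.4e-05, edgeR) and -0.77 ± 0.11 (adjusted p = 0.00214, edgeR), and the gene's sum changed by 0.80 ± 0.14. The groups did not overlap for XM_023060533.1 and overlapped for XM_023060532.1.

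LOC111428409 had a log2 fold change of 0.73 ± 0.09 in XM_023063911.1 and -2.42 ± 0.25 in XM_023063912.1, which had 7.44, 14.2 and 49.6 CPM in the horn and 46.0, 102 and 178 CPM in the wing. LOC111415755 had one of 0.76 ± 0.08 in XM_023047603.1 and -0.63 ± 0.17 in XM_023047606.1, and its sum did not pass the test (-0.13 ± 0.10; edgeR adjusted p = 0.286). Leaving out animal 1 or animal 5 took the call of XM_023047606.1 away (adjusted p = 0.056 and 0.052, edgeR). Refits without animal 1, 2, 3, 5 or 6 found 29, 28, 27, 26 and 27 genes with opposite transcripts. Expected counts divide reads that several transcripts could have given, so these values are estimates of the split.

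Non-coding transcripts made up 517 of those tested. In the horn 123 were higher and 63 lower, 35.98% called against 44.4% of coding transcripts, with a median log2 fold change of 0.11 against -0.22. Of the 517, 165 lay under 1 CPM and 302 from 1 to 10 CPM. In these classes 24.7% and 38% of all tested transcripts were called. Coding and non-coding transcripts were not compared at equal abundance. Apart from XR_002708027.1, described above, the non-coding transcript with the largest increase was XR_002708060.1, with 10.4, 21.7 and 30.6 CPM in the horn and 0.172, 0.297 and 0.686 CPM in the wing, a log2 fold change of 5.92 ± 0.18 (adjusted p = 9.57e-06, edgeR). It was the horn's own. XR_002706553.1 of LOC111416498 was at 0 in 5 of 6 horn libraries, reached 5.72 CPM in the horn of animal 6, and had 15.1, 18.5 and 23.7 CPM in the wing. Its log2 fold change was -6.91 ± 1.31 (adjusted p = 0.00598, edgeR) and -12.04 without animal 6. XR_002707657.1 of LOC111424890 had no count in the horn and 0.457, 1.47 and 2.78 CPM in the wing, and its call was lost without animal 2, 4, 5 or 6 (adjusted p = 0.054, 0.055, 0.059 and 0.051, edgeR).

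Nearly all genes carried a locus number for a name. Symbols of another kind, which look cut short in the gene table and are given no role here, belonged to 32 tested genes with 42 transcripts, of which 12 were higher in the horn and 8 lower (47.6% called, beside 44.1% of all). The largest change on the higher side was that of IT (XM_023046538.1), with 4.13, 15.6 and 20.1 CPM in the horn and 1.28, 2.85 and 9.74 CPM in the wing. Its groups overlapped, its log2 fold change was 2.14 ± 0.55 (adjusted p = 0.0197, edgeR), and the call was lost without animal 1, 2, 5 or 6 (adjusted p = 0.059, 0.053, 0.06 and 0.058, edgeR). REPTOR-B (XM_023061826.1) had 7.90, 9.58 and 12.2 CPM in the horn and 2.18, 2.98 and 3.95 CPM in the wing, a log2 fold change of 1.70 ± 0.18 without overlap. S1 had 2 tested transcripts, both called higher, and summed over all its transcripts it changed by 1.18 ± 0.08. Smaller increases were called for Rab3-GA (0.76 ± 0.13), eIF4EH (0.61 ± 0.09), RFeS (0.59 ± 0.10), CNB (0.53 ± 0.17), SWI (0.33 ± 0.10), SREB (0.33 ± 0.09) and betaCO (0.18 ± 0.06). MR was called in XM_023044480.1 (0.80 ± 0.21), but its sum over all transcripts, of which 6 were tested, was not (0.26 ± 0.12, edgeR adjusted p = 0.119).

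On the lower side CRM (XM_023059892.1) had 1.13, 2.25 and 5.01 CPM in the horn and 6.55, 8.45 and 9.23 CPM in the wing, a log2 fold change of -1.90 ± 0.31 (adjusted p = 0.00306, edgeR). Both named transcripts of ND-AC were lower, and the gene's sum changed by -1.08 ± 0.08. ClpP had 3.21, 3.83 and 4.88 CPM in the horn and 4.86, 5.64 and 6.54 CPM in the wing, a change of -0.54 ± 0.13 with groups that overlapped slightly. The others were VhaAC45R (-1.38 ± 0.45), EDT (-0.56 ± 0.17), PNK (-0.51 ± 0.13) and alphaCO (-0.37 ± 0.10). Both lists hold mostly small changes, and with total counts 9 of the 12 higher transcripts turned negative. Many of these calls did not survive the loss of an animal. SWI and betaCO lost theirs without any 1 animal (edgeR adjusted p = 0.06 to 0.11 and 0.053 to 0.14), MR without animal 1, 2, 5 or 6 (0.051 to 0.062) and SREB without animal 1, 3, 4 or 5 (0.052 to 0.07). CNB lost its call without animal 1, 2, 4, 5 or 6 (0.062 to 0.12), VhaAC45R and EDT without animal 1, 3, 4, 5 or 6 (0.071 to 0.11 and 0.073 to 0.093), alphaCO without animal 2 (0.052) and PNK without animal 1 (0.053).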

How the data were processed

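The authors deposited 1 table of expected counts, which are estimates and often not whole, with 60 columns and 23725 RefSeq transcripts. RNA was extracted with a Qiagen RNeasy kit and libraries were stranded, per the labels' protocols. The tools, per the submitters' processing notes, were RSEM 1.3.0, DESeq2, Bowtie2 2.3.2 and Trimmomatic 0.32, with no role stated. Build, annotation and strand setting: not given in the sources used here. Expected counts divide reads between transcripts and near-identical genes.

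The wing and carinated margin columns carry no side. Wing column k correlated with k+6 in deviations from the tissue mean (r = 0.403 to 0.651, other pairs at most 0.278), as did horn and wing of the same number (0.383 to 0.529, others at most 0.235), so columns k and k+6 were summed and the replicate number was used as a block. The pairing comes from these correlations and from the design text, which says that left and right came from the same individual.

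Sums were rounded, filtered by filterByExpr (minimum count 10, total 15) and TMM-scaled. The test was edgeR's quasi-likelihood F-test (edgeR 4.0.16 under R 4.3.3 with limma 3.58.1), on 12 libraries for horn against wing and 36 for the prothorax. Calls are Benjamini-Hochberg adjusted p under 0.05 over all transcripts kept. Standard errors are the absolute log2 fold change divided by the square root of F. Bounds use a floor of 3 counts over the 6 libraries of the tissue at 0; with 1 to 3 counts a 95% exact counting interval is given. Both reflect counting error alone; molecular identifiers are not described. The procedure was also run on simulated counts with less spread than these data and few changed transcripts, so that run does not test the calls made here.

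Accessions of 15104 transcripts matched 10670 genes of a RefSeq table (assembly IU_Otau_3.0, used for names and gene order), which held 72.0% of horn and wing counts. Planned searches for protein motifs were not made, and the marker symbols matched 0 genes. Named transcripts are those with the largest changes per abundance class, per kind of sharing and among non-coding transcripts, the most abundant, genes with opposite transcripts, and genes with a symbol. Those per abundance class were taken among called transcripts that went the same way in every animal. Members were chosen by sample label and lists by the rules above, but with earlier results of these data known. Alternatives were RLE and total-count scaling, DESeq2 1.42.0, other filters, no block, wing columns 1 to 6 or 7 to 12 alone, sums per gene, a 2-fold threshold, and leaving out each animal. Sums per gene took all transcripts matched to the gene, tested or not.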

Additional observations from a re-analysis of the deposited data

Results flagged for a closer look

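In 17 of 132 groups of 6 libraries (named transcripts in horn or wing) 1 library stood apart from the other 5 by Dixon's criterion, 12.9% of groups. The criterion flags about 1 in 20 groups of normally distributed values. Many of these groups lay at or near 0 CPM, and some were at 0 throughout, so the 2 rates cannot be compared. Among horn libraries these were animal 6 for LOC111416498 (XR_002706553.1, 5.72 CPM), LOC111426932 (0.563 CPM) and XM_023054290.1 (0.281 CPM), and animal 4 for XM_023053673.1 (0.167 CPM), where the other 5 horn libraries were at 0. The horn of animal 2 stood above the others for EDT (3.93 CPM).

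In the wing, animal 4 stood apart for IT (9.74 CPM, next 3.08), LOC111415755 (XM_023047603.1, 86.3 CPM, next 40.5), XM_023053673.1 (12.1 CPM), XM_023053118.1 (0.115 CPM), LOC111428269 (0.0766 CPM) and, below the others, XM_023048293.1 (0.8998 CPM). Animal 5 stood above the others for LOC111418544 (0.101 CPM), LOC111418555 (84.4 CPM, next 31.2) and alphaCO (65.9 CPM). LOC111418544 and LOC111418555 are neighbours in the gene order. Single cases were SWI in the wing of animal 6 (11.2 CPM), Rab3-GA in that of animal 2 (32.1 CPM) and XR_002708060.1 in that of animal 3 (0.686 CPM). Values near 0.1 CPM rest on a few counts.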

How the results depend on the processing

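Of 66 named transcripts 57 were tested in all 15 refits, and 37 of these kept direction and call in each; over whichever refits tested a transcript, 44 did. None turned when 1 animal was left out, though 12 lost their call in at least 1 such fit. The scaling mattered most. With total counts the calls numbered 8376 (789 higher, 7587 lower); higher calls by rising class were 21, 275, 307 and 142 below 1000 CPM, lower calls 830, 3996, 2439, 289 and 33; higher transcripts were shared in 194, seen in some in 388, the horn's own in 138 and unresolved in 66, and lower ones seen in some in 2032, the horn's own in 4345 and unresolved in 629. Under it 13 named log2 fold changes turned: MR -0.21, SWI -0.67, XM_023047603.1 -0.25, S1 XM_023049043.1 -0.14, XM_023050859.1 -0.42, SREB -0.68, CNB -0.48, Rab3-GA -0.25, XM_023063911.1 -0.28, eIF4EH -0.40, RFeS -0.42, betaCO -0.83 and XM_023065439.1 -0.82.

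Without the replicate block 2178 transcripts were higher and 2647 lower; at 1000 CPM and over 5 were lower, 235 higher and 201 lower transcripts were shared, 513 and 487 were unresolved, and 28 genes had opposite transcripts. With at least 2-fold, there were 3019 calls (1393 higher, 1626 lower), 934 of them lower from 1 to 10 CPM, 511 higher and 329 lower from 10 to 100, 184 and 57 from 100 to 1000, 4 lower above that, and 27 opposite genes. Under 1 CPM higher calls were 144 with DESeq2, 184 with no filter, 45 and 34 against wing columns 1 to 6 and 7 to 12 alone, 317 in the fit of 36 libraries, and 167 with classes from the other prothoracic tissues; lower calls were 192 and 175, 728, and 186 in the last 4 of these. The 36 libraries left 760 lower transcripts unresolved. Opposite genes were 102 with DESeq2 and 28 with wing columns 7 to 12. Leaving out 1 animal gave 60 to 77 higher and 173 to 205 lower calls under 1 CPM, 293 to 419 shared lower and 169 to 239 unresolved lower transcripts, and 26 to 34 opposite genes; shared lower fell to 318 without animal 2 and 293 without animal 5, unresolved lower to 169 and 191 without animals 1 and 4. The cause was not tested. Horn depth limits low transcripts: 3 counts over the group are 0.046 CPM there and 0.0105 CPM in the wing.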

Other observations

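The dorsal head also took no part in the sorting by prothoracic tissue. Of the 613 higher transcripts of the horn's own, 303 (49.4%) had a mean CPM in the head above the wing and above each of the other 4 prothoracic tissues, beside 29.2% of all 14400 transcripts. Of the 865 lower ones, 337 (38.96%) had a mean in the head below all of these, beside 32.7% of all. Of the same 2 groups 380 (62.0%) and 597 (69.0%) did so in the support structures. The sorting by itself raises such shares, and the difference between head and support structures was not tested.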
